A study of Mus musculus with 30 samples.

Results

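The genes described here encode the mitochondrial protein import translocases. They were taken by name, as every row of the expression table whose symbol begins with Timm or Tomm followed by a number, and this gave 25 of 49585 rows. Of these, 9 encode subunits of the TOM complex of the outer membrane, 14 encode TIM components of the intermembrane space, inner membrane and matrix side, and 2 are no TOM subunits. The latter are Tomm34, a cytosolic co-chaperone, and Tomm6os, a noncoding transcript that overlaps Tomm6. RNA was sequenced from mouse embryos of BDF1 x BDF1 crosses at the 8-cell stage, cultured in KSOM medium, after control knockdown (2 libraries) and after Yy1 knockdown with the siRNA numbered 1 in the labels (2 libraries). Yy1 encodes the zinc finger transcription factor YY1, and the comparison asks which of these transcripts differ when it is knocked down. A single siRNA was used in these RNA libraries, and the labels do not say how many embryos were pooled or whether replicates were collected separately. A p-value here therefore sets a difference only against the spread of these libraries, estimated in part over all genes. That spread may be technical. The other 26 of the 30 samples of the series were not analysed here.

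Nearly all mitochondrial proteins are encoded in the nucleus, made in the cytosol and carried into the organelle through the TOM complex, whose receptors bind the precursor and whose channel subunit, TOM40, lets it pass. Precursors with an N-terminal presequence go on through the TIM23 complex to the matrix, drawn in by a motor that TIM44 tethers to the channel. Carrier proteins of the inner membrane are instead handed through the intermembrane space by small TIM chaperones to the TIM22 complex. The mitochondria of a cleavage-stage embryo come from the oocyte.

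The deposited values were FPKM, that is, fragment counts scaled to the length of the gene model and to the depth of the library. The steps between values gave the depth behind them, from 29302489 to 34429515 fragments per library. Yy1 itself measured 77.7 and 71.2 FPKM in controls against 5.89 and 7.98 FPKM after its knockdown, which is 10.7-fold lower (limma adjusted p = 0.0556). It passed under 3 of 12 alternatives (adjusted p 0.0108 with a filter of 5 FPKM, 5.927e-05 with limma-voom and 0.0004928 with protein-coding genes alone). Its limma adjusted p was 0.379 with the replicate number as a block. With no filter it was 0.769, the highest of the fits on all 4 libraries. With 1 library left out the log2 fold change of Yy1 ran from -3.45 to -3.07. Replicates resembled each other about as much as they resembled the other group (Pearson correlations of log2 values across genes 0.969 and 0.966 within groups, 0.959 to 0.97 between them). Of 11 genes typical of the 8-cell embryo, 10 had a mean of at least 1 FPKM, led by Dppa3, and Sox2 did not. Of 12 cumulus and granulosa cell markers 1 did, Amhr2, and the list summed to 5.63 and 5.17 FPKM in control and 8.1 and 7.87 FPKM in Yy1 knockdown libraries. Fshr, Inha, Has2 and Ptx3 were at 0 in all of them, and the part of this list in the results below was not tested. Of 6 oocyte markers, 6 had a mean of at least 1 FPKM, led by Gdf9 at 14.6 FPKM. That list summed to 39.5 and 36.1 FPKM in control and 45.8 and 37.8 FPKM in Yy1 knockdown libraries. The source of these oocyte transcripts was not tested. Of 6 sperm markers and 5 blood markers none reached a mean of 1 FPKM. In bulk RNA, fewer cells of a type and less RNA per cell cannot be told apart.

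Most of the import machinery was well expressed, and no difference between the groups passed the test. Of the 25 rows, 22 had a mean of at least 1 FPKM and were tested within a fit over 12120 genes. None of the 22 passed (limma adjusted p from 0.531 to 0.961), as was the case for all genes tested, of which 0% were called, so a count of 0 says little about the members. At an unadjusted p under 0.05 there was 1 member, Timm8b, against 8.9% of all genes. Limma-voom on the recovered fragments called 13 of 12116 genes and 0 of the members. By mean log2 level 13 members were higher and 9 lower after Yy1 knockdown, where 46.8% of all genes were lower. The median log2 fold change was 0.04, against 0.02 over all genes. In 6 members both knockdown libraries were above both controls, a pattern shown by 21.8% of all genes, and in 4 both were below, shown by 18.9% of all genes. Both shares are close to what these 22 genes would hold at the background rate.

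A p above the threshold does not show that the levels were equal, so the intervals matter. The 95% interval of the log2 fold change lay inside -1 to 1, that is within a doubling or a halving of FPKM + 1, in 19 of 22 members. For genes at low levels, such as Timm10b with an upper limit of 0.998, the change in FPKM itself can be larger. The interval reached past -1 in 3 members, Timm21, Timm8a2 and Tomm20l. Half-widths ran from 0.311 for Tomm20 to 0.911 for Tomm20l, with a median of 0.414, against 0.576 over all genes tested. These are intervals of single genes. The difference needed to pass after adjustment over all genes was larger, since Timm8b and Yy1 exceeded their half-widths and did not pass.

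**Figure D1:**
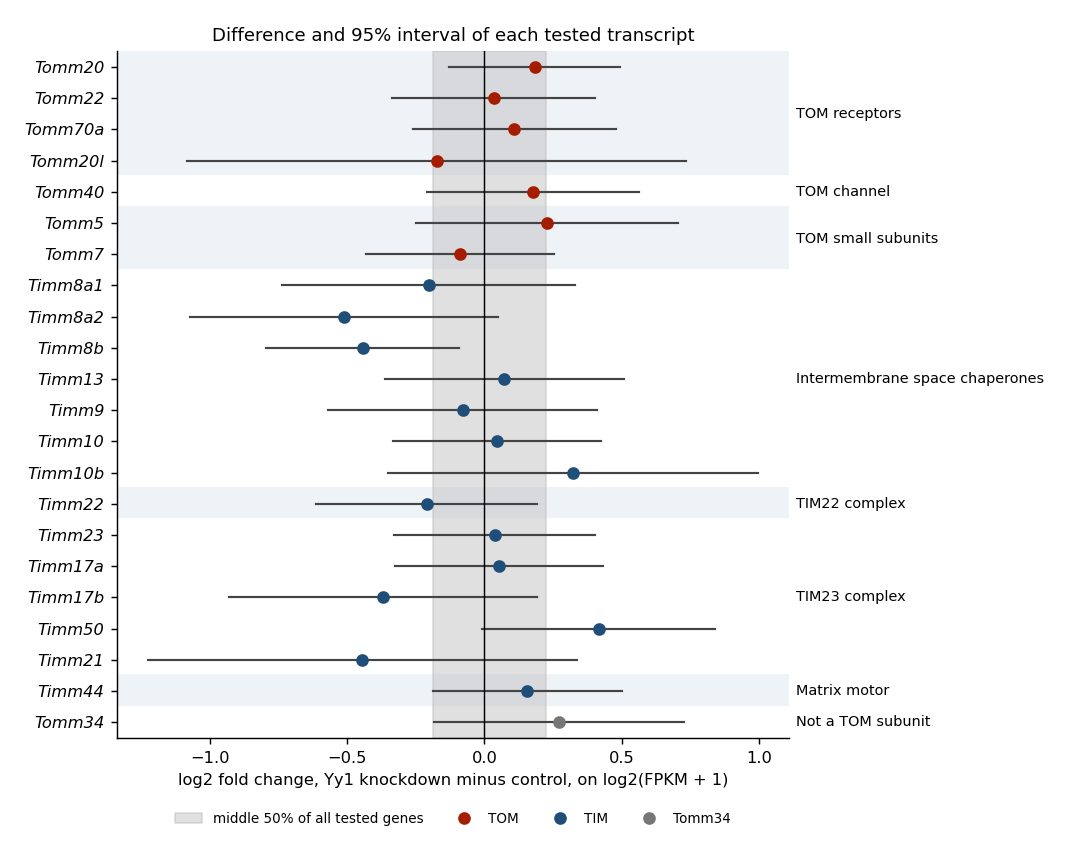
Log2 fold change (Yy1 knockdown minus control, x axis, on log2(FPKM + 1)) of the 22 tested Timm and Tomm genes, grouped by role on the y axis; bars are 95% intervals from limma over 2 libraries a group, and the grey band holds the middle 50% of all tested genes. The interval of Timm8b, -0.79 to -0.09, lies wholly below 0, and its adjusted p was 0.531.

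The TOM receptors are the first subunits a precursor meets. Tomm20, the receptor for presequences, had 82.3 and 79.3 FPKM in controls and 92.2 and 91.4 FPKM after Yy1 knockdown. Both knockdown libraries were higher than both controls, and replicates were tight. That gave a log2 fold change of 0.18 (standard error 0.125, limma adjusted p = 0.69). Tomm22, the central receptor that holds the complex together, and Tomm70a, the receptor that takes over carrier precursors from cytosolic chaperones, had groups that overlapped, with 85.3 to 103 FPKM and 48.6 to 59.0 FPKM over the libraries. Tomm20l, a relative of Tomm20 named Tomm20-like, was at 5.07 and 2.3 FPKM in control and at 3.69 and 2.35 FPKM in knockdown libraries. It rested on 41 to 104 fragments a library, and the control replicates differed 2.21-fold. Tomm20l held 2.5 to 5.8% of the summed FPKM of the pair.

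The channel subunit was Tomm40 in all 4 libraries. Tomm40 had 13.2 and 14.2 FPKM in control and 15.3 and 16.0 FPKM in knockdown libraries, again without overlap (log2 fold change 0.18, standard error 0.154, limma adjusted p = 0.758). Its relative Tomm40l was listed at 0 in both control libraries and in Yy1 knockdown replicate 2, and at 0.0171 FPKM, from 3 fragments, in replicate 1. Among the small subunits that stabilise the channel, Tomm5 was the most abundant TOM transcript, with 147.6 and 112 FPKM in control and 167.3 and 136 FPKM in knockdown libraries. Its replicates spread so far that the groups overlapped (log2 fold change 0.23, standard error 0.191, limma adjusted p = 0.744). Without control replicate 2 the value was 0.03, and without control replicate 1 it was 0.43. Tomm7 ran from 79.7 to 93.3 FPKM, with overlap.

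Tomm6, the remaining small subunit, stood apart from its partners. It had 0.128 and 0.225 FPKM in control and 0.259 and 1.69 FPKM in knockdown libraries, from 5, 8, 10 and 56 fragments, and was below the level tested. Yy1 knockdown replicate 2 alone reached 1 FPKM. The span of Tomm6, on chromosome 17 from 47686645 to 47688386 of GRCm38.p6, overlaps those of 4 other RefSeq genes, among them Tomm6os. That row had 0.118 and 0.0324 FPKM in control and 0.229 and 0 FPKM in knockdown libraries, from 12, 3, 23 and 0 fragments. The sources used here do not give how fragments that fall in 2 genes were counted, so the low level is a value of the table, and its cause was not tested. Tomm34 had 5.65 and 4.96 FPKM in control and 6.69 and 6.51 FPKM in knockdown libraries (log2 fold change 0.27, standard error 0.183, limma adjusted p = 0.687), without overlap.

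**Figure D2:**
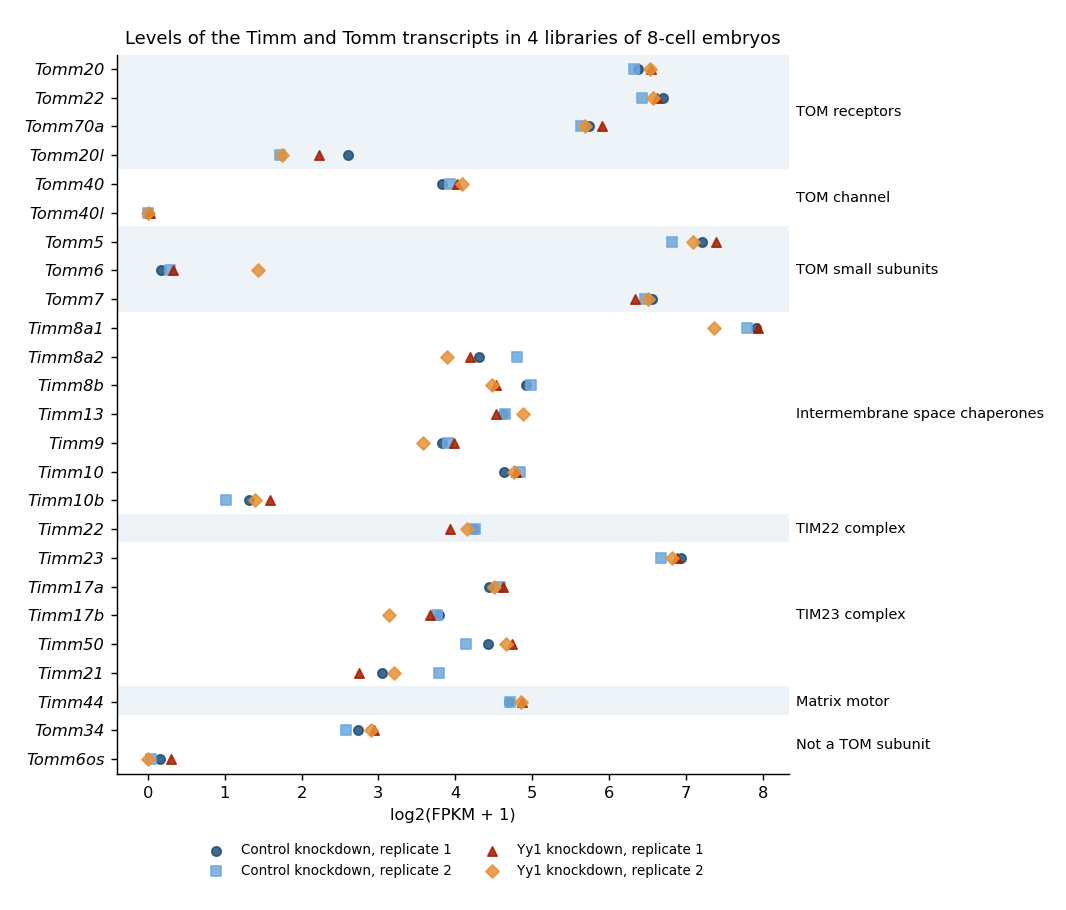
Level of each of the 25 Timm and Tomm rows as log2(FPKM + 1) (x axis) in the 4 libraries, 1 point a library, grouped by role on the y axis. Timm8a1 is the highest in each library, Tomm40l, Tomm6os and Tomm6 are the lowest by their means, and for most genes the 2 groups lie within or close to the spread of their replicates.

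The small TIM chaperones of the intermembrane space form rings that shield hydrophobic precursors. Timm8a1, whose human counterpart is mutated in a syndrome of deafness and dystonia, was the most abundant member, at 241 and 221 FPKM in control and 245 and 164 FPKM in knockdown libraries. It stood above 96.9% of all tested genes by its mean. The knockdown replicates of Timm8a1 differed 1.5-fold, which is 26.5 times the counting error of that difference, and its log2 fold change of -0.20 (standard error 0.214, limma adjusted p = 0.8) turned to 0.09 without Yy1 knockdown replicate 2. Timm13, the partner of TIMM8A in its ring, and Timm9 and Timm10, which together form the ring that carries most carrier proteins, ranged from 10.96 to 28.5 FPKM with overlap between the groups in each case.

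Timm8b, a close relative of Timm8a1, was at 29.3 and 30.6 FPKM in control and at 22.1 and 21.3 FPKM in Yy1 knockdown libraries. Both knockdown libraries lay below both controls, and the replicates of each group differed by less than their counting error. The means were 29.9 ± 0.906 and 21.7 ± 0.53 FPKM (SD, n = 2 each), 1.38-fold lower after knockdown, from 324 to 522 fragments. The log2 fold change was -0.44 (standard error 0.14, unadjusted p = 0.0218, limma adjusted p = 0.531). It was the smallest p among the members and did not pass. Timm8b lies on chromosome 9 from 50603901 to 50605320 and overlaps the span of Nkapd1.

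Timm8a2 had 18.9 and 26.9 FPKM in control and 17.4 and 13.9 FPKM in knockdown libraries. These groups did not overlap either, but the gap between the nearest libraries was small beside the spread of the controls (log2 fold change -0.51, standard error 0.225, limma adjusted p = 0.586). With 1 library left out it ran from -0.76 without control replicate 1 to -0.27 without control replicate 2. The summed FPKM of the Timm8 genes came mostly from Timm8a1, which held 79.4 to 86.1%, followed by Timm8b with 7.76 to 10.96% and Timm8a2 with 6.1 to 9.64%. Timm10b, a small TIM bound to the TIM22 complex, was the lowest member tested, at 1.49 and 1.02 FPKM in control and 2.02 and 1.62 FPKM in knockdown libraries (log2 fold change 0.32, standard error 0.27, limma adjusted p = 0.744).

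Of the TIM22 complex, which inserts carriers into the inner membrane, Timm22 encodes the channel. Timm22 was at 18.0 and 18.2 FPKM in control and at 14.3 and 16.8 FPKM in knockdown libraries, without overlap (log2 fold change -0.21, standard error 0.161, limma adjusted p = 0.725). Timm29, another subunit of that complex, carries the older symbol 1810026J23Rik in the table and so falls outside the naming rule. Its values were 19.7 and 18.8 FPKM against 18.5 and 15.3 FPKM, also without overlap (limma adjusted p = 0.769).

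The TIM23 complex is the entry for presequence proteins. Its channel-forming pair is TIM23 and TIM17, and TIM50 receives the precursor from TOM. Timm23 was among the most abundant members, at 122 and 101.5 FPKM in control and 117 and 112 FPKM in knockdown libraries, with a log2 fold change of 0.04 (standard error 0.147, limma adjusted p = 0.956). Timm50 was at 20.6 and 16.6 FPKM in control and at 25.8 and 24.2 FPKM in knockdown libraries. Both knockdown libraries of Timm50 were above both controls, by means of 18.6 ± 2.85 against 24.99 ± 1.12 FPKM (SD, n = 2 each), 1.34-fold higher. The log2 fold change of 0.42 (standard error 0.17, unadjusted p = 0.0533, limma adjusted p = 0.566) did not pass. It was 0.27 without control replicate 2 and 0.56 without control replicate 1. The value of 0.42 was the highest of the tested members on log2(FPKM + 1), but Timm10b, at 0.51 against 0.43, was higher with a pseudocount of 0.1. Timm21, which links the complex to TOM and to the respiratory chain, had 7.24 and 12.9 FPKM in control and 5.69 and 8.23 FPKM in knockdown libraries, with overlap and 1.78-fold between the controls (log2 fold change -0.45, limma adjusted p = 0.703). Without control replicate 2 the log2 fold change of Timm21 was -0.07, and without control replicate 1 it was -0.82. Timm44, the anchor of the matrix motor, was at 25.02 and 25.12 FPKM in control and 28.3 and 27.8 FPKM in knockdown libraries (log2 fold change 0.16, standard error 0.138, limma adjusted p = 0.76). Its groups did not overlap, and replicates of Timm44 differed by less than their counting error.

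The start regions of the members were read for the core of the motif that YY1 binds, AANATGGC, on both strands. RefSeq windows from 250 bases before to 50 bases after the start of the gene were found for 22 of the 25 members. The motif was present in 2 of them, Timm50 and Timm44, both on the strand of the gene. Of all 32851 windows 6.05% hold it, and of the 8617 windows of tested genes 9.68%, against 8.33% of the 24 windows of members. The 2 sites are shown because these are the members in which the motif stands, each as 30 bases of GRCm38.p6 read 5′ to 3′ along the gene, which lies on the minus strand, with the motif in capitals. The Timm50 site is chr7:28312017-28312046, with the motif at transcribed bases 12 to 19, and the Timm44 site is chr8:4275872-4275901, with the motif at transcribed bases 16 to 23.
Timm50: ggcgtcagcgcAAGATGGCggcctcggcgg
Timm44: cgggctcttccAACATGGCggcggcagctc
In both genes the knockdown libraries were above both controls, a pattern shown by 21.8% of all tested genes, and neither passed the test. Whether the motif goes with a direction was not tested. A match of letters is a description and does not show binding.

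The TIM17 subunit has a pair of genes. Timm17a was at 20.7 and 23.04 FPKM in control and 23.7 and 21.8 FPKM in knockdown libraries (log2 fold change 0.05, standard error 0.152, limma adjusted p = 0.939). Timm17b, on the X chromosome from 7899336 to 7907652, was at 12.8 and 12.6 FPKM in control and 11.8 and 7.82 FPKM in knockdown libraries (log2 fold change -0.37, standard error 0.224, limma adjusted p = 0.672). Timm17b did not overlap between groups, though its knockdown replicates differed 1.5-fold, and its log2 fold change was -0.10 without knockdown replicate 2 and -0.64 without knockdown replicate 1. Timm17a held 61.7 and 64.7% of the pair's summed FPKM in control and 66.8 and 73.5% in knockdown libraries. These shares do not overlap, but the step from control replicate 2 to Yy1 knockdown replicate 1 was smaller than the distance between the replicates of either group. With 2 against 2 libraries an exact permutation test could not pass, and none was run.

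**Figure D3:**
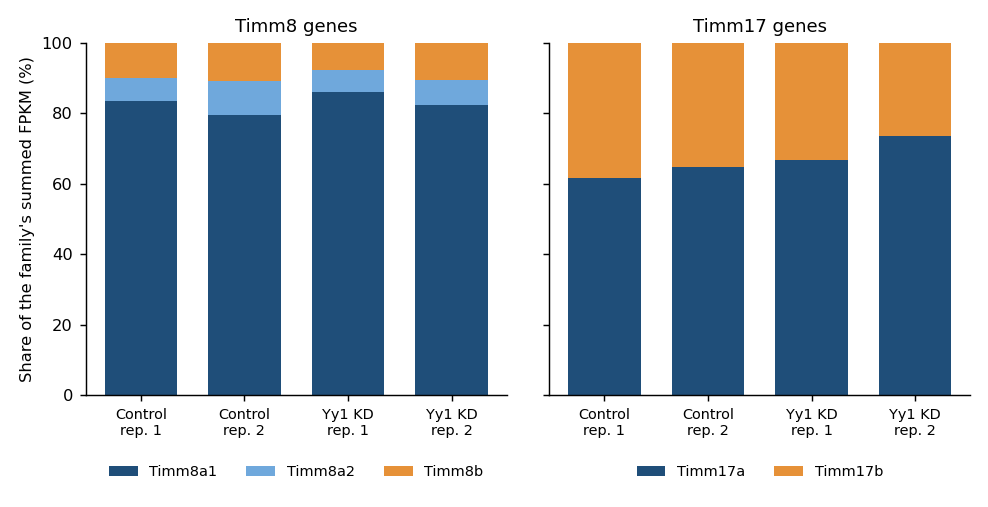
Share of the summed FPKM (y axis, percent) that each gene of the Timm8 family and of the Timm17 pair held in each of the 4 libraries (x axis); each bar adds to the whole family. Timm8a1 holds 79.4 to 86.1% of its family, and Timm17a 61.7 to 73.5% of its pair.

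Between genes, FPKM is scaled to the length of the authors' gene model. The steps in the values gave, for each gene, the smallest whole length that fits, and the model can be longer by a whole factor. These smallest lengths ran from 371 bases for Tomm22 to 7893 bases for Timm17a. Levels of different genes depend on the authors' model, while the comparison of groups within a gene does not. In the order of mean FPKM, Timm8a1 (217.9) was followed by Tomm5 (140.8), Timm23 (113), Tomm22 (95.1), Tomm7 (87.6), Tomm20 (86.3) and Tomm70a (52.6). The libraries of Tomm5, Timm23 and Tomm22 overlap from one gene to the next, as do those of Tomm22, Tomm7 and Tomm20. Neighbours among these 5 are therefore not separated by the spread over libraries, while some genes further apart are. Every library of Tomm5 (lowest 112 FPKM) was above those of Tomm22 (highest 103 FPKM). Every library of Timm23 (lowest 101.5 FPKM) was above those of Tomm7 and Tomm20 (highest 93.3 and 92.2 FPKM). Within each of the 4 libraries Tomm5 was above Timm23 and Timm23 above Tomm22. Tomm70a, at 48.6 to 59.0 FPKM, lay below every library of Tomm20. After Tomm70a comes a wide gap, with the remaining tested members at 26.6 FPKM or less.

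TOM and TIM components were then set side by side. The 7 tested TOM genes had a median log2 fold change of 0.11, with 5 higher and 2 lower, and the 14 TIM genes a median of -0.02, with 7 higher and 7 lower. Over all tested genes the median was 0.02, with 46.8% lower. Taken library by library against the control mean, the median over the TOM genes was 0.14 and 0.01 in knockdown replicates 1 and 2. In control replicates 1 and 2 it was 0.05 and -0.05, so knockdown replicate 2 lay between the controls. The median over the TIM genes was 0.06 and -0.05 in knockdown replicates 1 and 2, so its sign was not shared by these replicates. Summed levels were 497 and 429 FPKM for TOM and 577.8 and 555 FPKM for TIM in control libraries. In knockdown libraries they were 515 and 483 FPKM for TOM and 576.7 and 485 FPKM for TIM. Both sums overlapped between the groups. Of the tested TOM genes 2 had both knockdown libraries above both controls (Tomm20 and Tomm40) and 0 below, and of the TIM genes 3 were above (Timm50, Timm44 and Timm10b) and 4 below (Timm8b, Timm8a2, Timm17b and Timm22), where all genes had 21.8% above and 18.9% below. Whether TOM and TIM differ was not tested, since genes are not replicates.

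Members of the import pathway with other names were taken from a list of 27 genes, of which 24 were tested. None passed (limma adjusted p from 0.531 to 0.999). By mean log2 level 18 were lower and 6 higher, with a median of -0.21, and in 7 both knockdown libraries were below both controls, in 1 above. Over all genes tested 46.8% were lower, 18.9% had both knockdown libraries below and 21.8% had both above. The list was not tested as a whole. Grpel2, a nucleotide exchange factor of the matrix motor, was at 2.71 and 3.64 FPKM in control and 1.38 and 1.44 FPKM in knockdown libraries (log2 fold change -0.79, standard error 0.245, unadjusted p = 0.0209, limma adjusted p = 0.531). Its groups did not overlap. The paralog Grpel1 had means of 16.9 and 14.9 FPKM. Dnajc19, a J-protein of the motor, had 6.46 and 6.89 FPKM in control and 4.85 and 5.25 FPKM in knockdown libraries (log2 fold change -0.34), without overlap.

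The matrix chaperonin genes Hspd1 and Hspe1 lie side by side. Hspd1 had 71.4 and 81.5 FPKM in control and 65.03 and 61.5 FPKM in knockdown libraries (log2 fold change -0.27), without overlap. Hspe1 had 23.5 and 40.96 FPKM against 18.9 and 24.8 FPKM (-0.50). The groups of Hspe1 overlapped, and its value ran from -0.89 without control replicate 1 to -0.11 without control replicate 2. Pmpcb and Pmpca encode the subunits of the peptidase that removes presequences. Pmpcb had 9.85 and 8.52 FPKM against 7.66 and 6.39 FPKM (-0.35), without overlap. Pmpca had 12.6 and 14.5 FPKM against 8.49 and 12.8 FPKM (-0.34). The groups of Pmpca overlapped, and its value was -0.07 without knockdown replicate 1 and -0.61 without knockdown replicate 2. Samm50, the channel of the complex that inserts outer membrane barrels such as TOM40, had 4.62 and 5.67 FPKM against 4.81 and 2.22 FPKM (-0.50). Knockdown replicate 1 of Samm50 lay between the controls, and its value was -0.08 without knockdown replicate 2 and -0.93 without knockdown replicate 1. Mipep, a peptidase that trims some precursors further, had 4.54 and 5.21 FPKM against 6.9 and 5.45 FPKM (0.28) and was the 1 gene of the list with both knockdown libraries above both controls. Adjusted p for these last 7 genes lay between 0.631 and 0.709. Hspa9, the motor's ATP-driven chaperone, was the most abundant of the list at means of 130 and 124.7 FPKM.

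**Figure D4:**
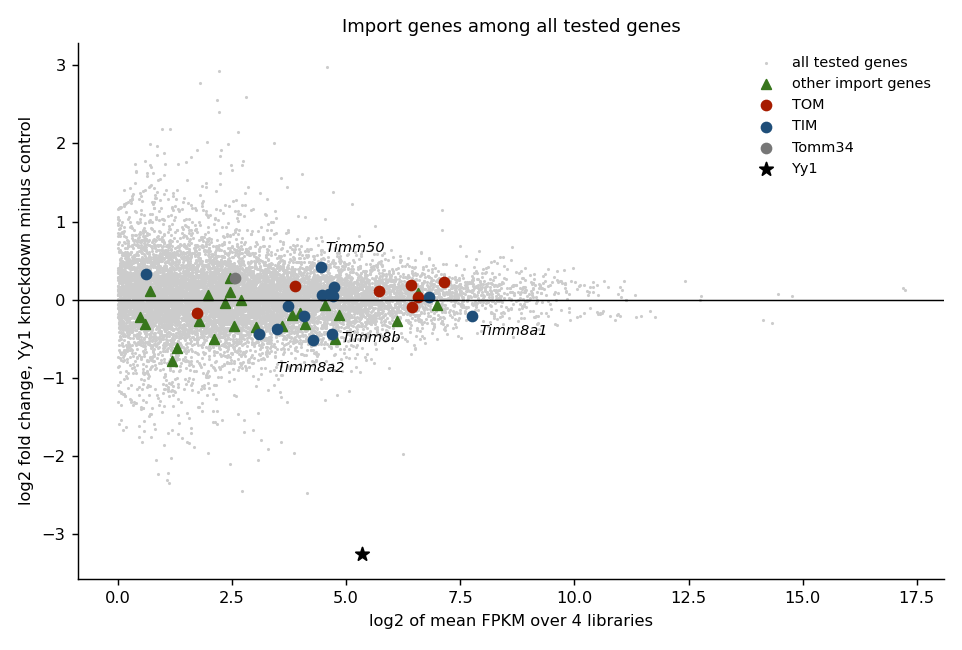
Log2 fold change (y axis, Yy1 knockdown minus control) against the log2 of mean FPKM over 4 libraries (x axis) for 12120 tested genes (grey), the TOM and TIM genes, Tomm34, 24 other import genes and Yy1. The import genes lie within the cloud of all genes at their level, while Yy1 lies at -3.26.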

How the data were processed

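Per the labels' protocols, total RNA was converted to libraries by a stranded SMART-Seq kit. The deposited table holds FPKM computed by the authors, 1 column a library, and no column of other samples. Tools listed in the submitters' processing notes, without roles, are bedtools, Bowtie2 2.4.3, featureCounts, HISAT2 2.2.1, R 4.0.3, SAMtools 1.4.1 and Trim Galore 0.6.7, with the mm10 build. The sources used here do not give the annotation release, how strand was set or what was done with multiply mapped fragments, so overlapping genes and close copies are uncertain.

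Rows whose 4-library mean reached 1 FPKM entered the test, on log2(FPKM + 1), which understates the change of low genes, with limma 3.58.1 in R 4.3.3 (group alone, mean-variance trend, two-sided, Benjamini-Hochberg over 12120 genes, threshold 0.05). The fit was tried on simulated data with no change and with a large change. That setting does not show how it performs on differences as small as those of the members. Fragment counts were recovered from the steps between FPKM values, whole within 0.001 fragments for 12116 of 12120 genes and all 25 members. They are the smallest counts that fit, and the true counts of a gene can be larger by a common factor. Errors from these counts cover counting error only, since PCR copies are not independent molecules. Of the 22 tested members, 11 control pairs and 11 knockdown pairs of replicates differed by more than 3 counting errors. Coordinates and start regions come from RefSeq GRCm38.p6, the assembly behind mm10, where 25 of 25 members matched by symbol. Groups come from sample titles. Alternatives were another pseudocount, filter, scaling, a replicate block, leaving out each library, limma-voom and protein-coding genes alone.

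The members and lists were chosen with earlier results of these data known. Named with values in every library were the 12 members with the smallest unadjusted p, the 3 highest and 3 lowest, and paralogs (19 in all), besides 8 other import genes by smallest p and Yy1. The rest are given by ranges.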

Additional observations from a re-analysis of the deposited data

How the results depend on the processing

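No Timm or Tomm gene was called under any of the 12 alternatives, where the lowest adjusted p of a named member was 0.283. The count of all genes called, 0, was 4 with a filter of 5 FPKM, 13 with limma-voom and 14 with protein-coding genes alone. In the limma fit over 12120 genes, 8.9% of all genes had an unadjusted p under 0.05. That share was not taken for the alternatives, so the counts of members that follow have no background of their own. Members with an unadjusted p under 0.05 numbered 2, against 1, with no filter, with a filter of 5 FPKM, with median-ratio scaling and with the replicate block, and 3 with protein-coding genes alone. They numbered 0 to 2 in the fits that leave out 1 library, 0 without control replicate 2 and 0 without Yy1 knockdown replicate 2. In these fits a group has 1 library, assumed to vary like the other. The labels do not say that replicates with the same number share a source, and deviations of same-numbered libraries correlated at 0.0994, so the numbers were not taken as a pairing. The replicate block changed no call. The median of the TIM genes, -0.02, was -0.079 with a filter of 5 FPKM and ran from -0.088 to 0.064 when 1 library was left out, above 0 without Yy1 knockdown replicate 2, and that of the TOM genes from 0.01 to 0.17. Of 16 named and tested members 12 kept their sign throughout. With 1 library left out the log2 fold change ran from -0.021 to 0.13 for Timm17a, from -0.10 to 0.17 for Timm23, from -0.49 to 0.086 for Timm8a1 and from -0.61 to 0.27 for Tomm20l. The ranges of others that moved by over 1.5 times without changing sign (Timm21, Tomm5, Timm17b, Timm8a2, Timm50) stand beside their values. It was also 0.17 without control replicate 2 for Timm10b and -0.10 without knockdown replicate 1 for Timm22. The cause was not tested. Depth limits Tomm6, Tomm40l and Tomm6os, with at most 56 fragments.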

Other observations

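Further import genes, named here after their values were seen, differed within their spread or by amounts that did not pass. As background, both knockdown libraries were above both controls in 21.8% of all tested genes and below both in 18.9%. Gfer and Chchd4 encode the oxidase and the receptor of the relay that folds small TIM chaperones in the intermembrane space. Gfer had 33.8 and 28.2 FPKM in control and 27.7 and 26.1 FPKM in Yy1 knockdown libraries, and Chchd4 1.63 and 1.95 FPKM against 1.33 and 1.16 FPKM, both without overlap. Aifm1, of the same pathway, had 12.9 and 17.4 FPKM against 12.8 and 13.2 FPKM, with overlap. Oxa1l, the insertase that works from the matrix side, had 3.74 and 3.95 FPKM against 3.35 and 2.67 FPKM, without overlap. Immp1l, a subunit of an inner membrane peptidase, had 2.22 and 3.70 FPKM in control and 3.41 and 0.465 FPKM in knockdown libraries, so replicate 1 lay between the controls and replicate 2 below both. Dnajc15 and Dnajc19 encode related J-proteins of the matrix motor. Dnajc15 was the more abundant, with means of 92.5 and 98.6 FPKM, and overlapped between groups, whereas Dnajc19 did not overlap. Timmdc1, an assembly factor of complex I whose symbol the naming rule does not take, had 12.5 and 12.2 FPKM in control and 17.8 and 14.1 FPKM in knockdown libraries, without overlap.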
